A study of Mus musculus with 8 samples.

Results

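The Ly6 genes described here are Ly6a, Ly6e, Ly6c1, Ly6c2 and Ly6i, 5 of the 55357 genes counted in mouse bone marrow-derived macrophages (BMDM). They were listed by name as Ly6 surface proteins and chosen by their counts in the treatment comparison reported here, whose results were already known. Their values in that comparison are therefore a description. Where the fit over all genes called a member, that is stated as part of the description and not as evidence about it. The comparison was between 4 control libraries and 4 libraries from cells given sphingosine d18:1 [So(d18:1)], a long-chain sphingoid base. Marrow cells of C57BL/6J wild-type mice were grown for 5 to 6 days in medium with M-CSF at 10 ng/ml, a growth factor that turns them into macrophages. So(d18:1) was given at 2 μM in methanol for 6 h, and control cells received methanol for 6 h. The labels name no inflammatory stimulus, whereas the study's text places these cells under one, and they do not say whether the libraries of a group came from separate animals. A p-value then measures the spread between these libraries, which may be technical.

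Ly6 proteins are small, cysteine-rich proteins with a three-finger fold, and most are held at the outer face of the cell membrane by a glycosylphosphatidylinositol (GPI) lipid anchor. Several are markers of blood cells. Ly6a encodes Sca-1, found on stem cells, activated lymphocytes and endothelium, and the Ly6c genes encode Ly6C, which marks classical monocytes and is lowered as these become macrophages. Ly6e encodes a widely made member known for its effects on virus entry, and Ly6i is a close relative of Ly6a reported in myeloid cells. Ly6a, Ly6e and Ly6c are known as genes that respond to interferon.

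The genes lie in a cluster on chromosome 15 that spans 157 kb of the GRCm38 (mm10) build in the GENCODE annotation. Ly6e (ENSMUSG00000022587) runs from 74955051 to 74959905 on the plus strand. The other members are on the minus strand, with Ly6i (ENSMUSG00000022586) from 74979534 to 74983430, Ly6a (ENSMUSG00000075602) from 74994877 to 74998031, Ly6c1 (ENSMUSG00000079018) from 75044018 to 75048830 and Ly6c2 (ENSMUSG00000022584) from 75108158 to 75111970. No exon of the 5 genes overlaps an exon of another annotated gene.

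The first 120 coding bases of each gene's principal GENCODE transcript are printed because they show how far a sequencing read can tell the members apart. They are written from the start codon, 5′ to 3′, and for Ly6c1, Ly6a and Ly6i the capitals mark bases unlike Ly6c2 at the same position. Ly6e was too different to be marked in this way.
Ly6c2: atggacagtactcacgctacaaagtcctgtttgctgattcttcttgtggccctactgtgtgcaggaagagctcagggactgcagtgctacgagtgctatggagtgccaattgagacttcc
Ly6c1: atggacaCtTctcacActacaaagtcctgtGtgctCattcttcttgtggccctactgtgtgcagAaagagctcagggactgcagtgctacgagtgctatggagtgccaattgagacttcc
Ly6a: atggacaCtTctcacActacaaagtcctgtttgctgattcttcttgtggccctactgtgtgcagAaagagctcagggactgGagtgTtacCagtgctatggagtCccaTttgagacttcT
Ly6i: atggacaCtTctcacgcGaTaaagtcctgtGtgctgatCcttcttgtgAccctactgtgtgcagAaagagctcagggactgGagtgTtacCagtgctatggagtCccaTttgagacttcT
Ly6e: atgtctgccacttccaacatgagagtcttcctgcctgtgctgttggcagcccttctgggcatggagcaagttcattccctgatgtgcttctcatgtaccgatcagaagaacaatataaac
Ly6c1 was unlike Ly6c2 at 6 of these 120 bases, Ly6a at 10 and Ly6i at 14. Over the whole coding sequence, Ly6c1 and Ly6c2 were 97.7% identical, with 9 mismatches in 393 aligned bases and a longest identical run of 188 bases. Ly6a was 86.3% identical to Ly6i, 81.8% to Ly6c1 and 81.6% to Ly6c2. Ly6e stood apart, at 49.5% to 52.2% identity with the other 4 genes.

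A stretch of sequence that occurs in more than 1 gene cannot by itself place a read that lies wholly within it. A longer read can reach beyond the stretch, so how far these shares bear on the counts depends on read length. Over all annotated transcripts of each member, 32.8% of the 50-base stretches of Ly6c1, 19% of Ly6a, 14.5% of Ly6c2, 4.76% of Ly6i and 0% of Ly6e were also found in a transcript of another gene. Ly6c1 and Ly6c2 had 379 of these stretches in common, Ly6a and Ly6c1 195, and Ly6a and Ly6i 31. Ly6c2 had stretches in common with 538 genes in all, far more than the 3 of Ly6c1 and the 4 of Ly6a. Of its 395 shared stretches, however, 379 were in Ly6c1, and no other gene had more than the 9 of Npy1r. At 100 bases Ly6c1 was the only gene that shared a stretch with Ly6c2. At 100 bases the shares were 10.1% for Ly6c1, 5.81% for Ly6c2, 1.45% for Ly6a and 0% for Ly6i and Ly6e. The 19 such stretches of Ly6a were all in Ly6c1. At 150 bases they were 2.29% for Ly6c1, 1.42% for Ly6c2 and 0% for Ly6a, Ly6i and Ly6e. In the coding transcript alone the order was another, with 36.7% of 50-base stretches shared for Ly6c1, 33% for Ly6c2, 10% for Ly6a, 4.97% for Ly6i and 0% for Ly6e. At 50 bases Ly6c1 had the highest share and Ly6e none by both measures, and the places of Ly6a and Ly6c2 changed with the transcripts taken. At 100 bases in the coding transcript, Ly6c2 had 15.8% shared and Ly6c1 15.3%. How reads that fit several places were counted, and whether strand was used, is not given in the sources used here.

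**Figure D1:**
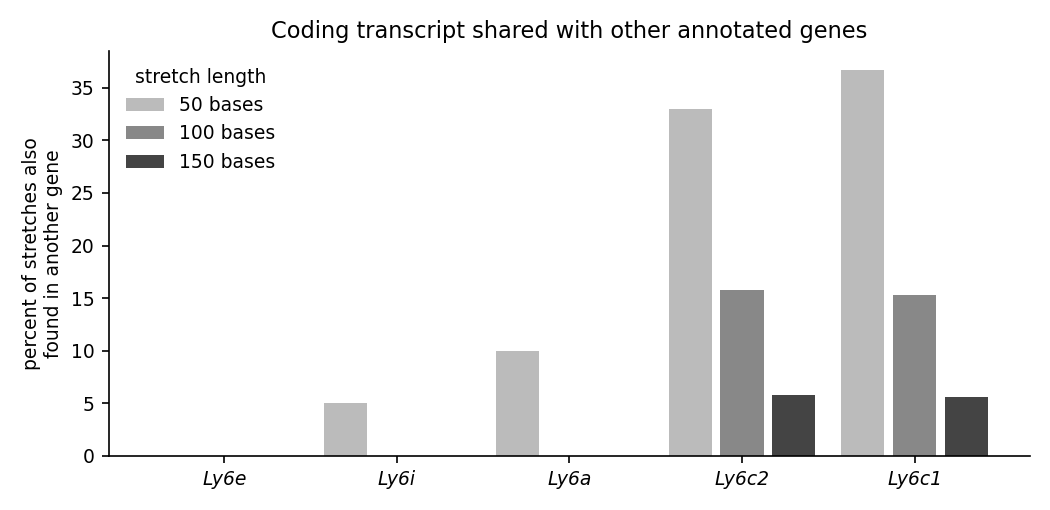
Percent of stretches of 50, 100 and 150 bases (y axis) in the coding transcript of each Ly6 gene (x axis) that occur exactly in a transcript of another annotated gene. Ly6c1 and Ly6c2 reach 36.7% and 33% at 50 bases, and Ly6e is at 0% at every length.

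Control libraries held 20819860 to 25114354 counts on genes and So(d18:1) libraries 17748397 to 26088609, a difference in mean within the spread of the libraries (two-sided exact permutation test, p = 0.314, n = 4 per group). Levels are given as CPM, reads per library brought to a common total, with TMM scaling factors between 0.989 and 1.01. Of the 5 members, 4 had enough counts to be tested by edgeR's filter, and Ly6c1 did not. Across the 14514 genes tested, 1298 had a Benjamini-Hochberg adjusted p under 0.05 by edgeR's quasi-likelihood test (8.94%), 562 of them higher with So(d18:1) (3.87%) and 736 lower (5.07%). The count fell to 815 without So(d18:1) replicate 2. All 4 tested members passed this threshold, Ly6a, Ly6i and Ly6e higher and Ly6c2 lower. A second threshold, the unadjusted p under 0.05 with a fold change of at least 1.5 given in the study's methods, was passed by 564 genes (3.89%), 204 higher (1.41%) and 360 lower (2.48%). Among the members Ly6a and Ly6i passed it, both higher. Nothing is read from these counts, since the members were chosen with this comparison known.

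Ly6a had the largest fold change of the 4 tested members. Its level was 20.7, 22.2, 21.7 and 17.5 CPM in control replicates 1 to 4 and 56.2, 64.0, 68.4 and 56.0 CPM in So(d18:1) replicates 1 to 4. Every treated library stood above every control library. The means were 20.5 ± 2.13 and 61.1 ± 6.12 CPM (n = 4 per group, ± SD), a ratio of 2.98, or 1.57 on the log2 scale (standard error, SE, 0.08). A larger rise was fitted for 12 of the 14514 tested genes (0.0827%). In bulk RNA of this kind, a change in how many cells make a transcript and a change in the amount per cell cannot be told apart. Sca-1 also marks progenitors and endothelial cells. The summed CPM of 7 progenitor markers was 14.4 to 16.5 in control and 14.6 to 16.4 in So(d18:1) libraries, and that of 7 endothelial markers 37.2 to 47.4 and 32.5 to 40.3. Of these, 6 progenitor and 5 endothelial markers had enough reads to be tested, and none of them passed an adjusted p of 0.05.

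Ly6i, the closest relative of Ly6a in coding sequence, was also higher. It was measured at 2.6, 3.82, 4.76 and 3.43 CPM in control replicates 1 to 4 and at 7.46, 7.28, 10.2 and 8.65 CPM in So(d18:1) replicates 1 to 4. The groups did not overlap. Ly6i was a low gene, with 54 to 113 reads per control library and 133 to 223 per treated library. The means were 3.65 ± 0.899 and 8.4 ± 1.35 CPM (n = 4 per group, ± SD), a ratio of 2.3 and a log2 fold change of 1.19 (SE 0.16). The spread between control libraries was 24.6% of the mean, where counting error gives 10.8%. The ratio of Ly6a to Ly6i reads was 4.56 to 7.98 in control and 6.47 to 8.78 in So(d18:1) libraries, so the groups overlapped in how the pair stood to each other.

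Ly6e was the most abundant member and was higher by a small factor. Control replicates 1 to 4 held 496, 511, 614 and 534 CPM, and So(d18:1) replicates 1 to 4 held 696, 609, 741 and 680 CPM. The groups overlapped, because control replicate 3 was above So(d18:1) replicate 2. The means were 539 ± 52.6 and 682 ± 54.6 CPM (n = 4 per group, ± SD), a ratio of 1.27 and a log2 fold change of 0.34 (SE 0.07). With at least 10306 reads in every library, counting error was 0.889% of the control mean while the libraries spread by 9.76%. Without So(d18:1) replicate 4 the log2 fold change was 0.34 again and Ly6e was not called.

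Ly6c2 went the other way. Its levels were 24.4, 26.0, 28.8 and 29.3 CPM in control replicates 1 to 4 and 21.5, 21.2, 18.9 and 22.2 CPM in So(d18:1) replicates 1 to 4. All treated libraries were below all control libraries. The means were 27.1 ± 2.35 and 21.0 ± 1.43 CPM (n = 4 per group, ± SD), a ratio of 0.773 and a log2 fold change of -0.37 (SE 0.075). Between genes, 15% of all those tested had groups that did not overlap, as Ly6a, Ly6i and Ly6c2 did.

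Ly6c1, nearly identical to Ly6c2 in its coding sequence, was close to the limit of detection. It held 0, 1, 0 and 2 reads in control replicates 1 to 4 and 3, 3, 3 and 5 reads in So(d18:1) replicates 1 to 4. No control library was above the 3 reads that a count of 0 allows, and among treated libraries only So(d18:1) replicate 4 was. The sums were 3 reads in control and 14 in So(d18:1) libraries, a ratio per total count of 5.18 that rests on few reads. With no filter on low counts, the log2 fold change of Ly6c1 was 2.19 (SE 1.06). It was not called in that fit (adjusted p = 0.284, edgeR's quasi-likelihood test). The same treated libraries held 363 to 572 reads of Ly6c2, which was lower with treatment, and 1002 to 1442 reads of Ly6a, which was higher. Ly6c1 had 379 stretches of 50 bases in common with Ly6c2 and 195 with Ly6a. The part of reads shared between these genes in the count of Ly6c1 was not tested.

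**Figure D2:**
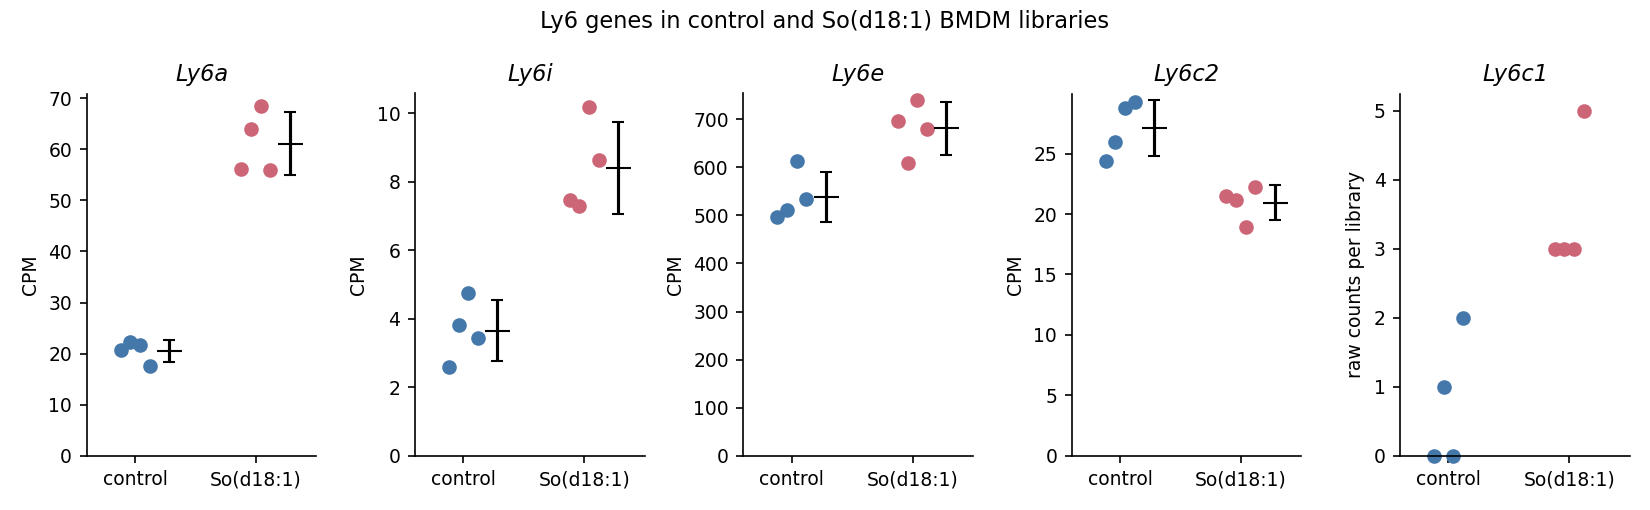
Levels of the 5 Ly6 genes in 4 control (blue) and 4 So(d18:1) libraries (red), in CPM for Ly6a, Ly6i, Ly6e and Ly6c2 and in raw reads for Ly6c1. Each point is a library, black marks are the mean ± SD, and each y axis starts at 0. Ly6a, Ly6i and Ly6c2 do not overlap between groups, Ly6e does, and Ly6c1 has at most 5 reads.

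Ratios within a library do not depend on how libraries are scaled. Ly6a had 0.595 to 0.854 reads per read of Ly6c2 in control and 2.52 to 3.62 in treated libraries. Control cultures held fewer Ly6a than Ly6c2 reads and treated cultures more, in 4 of 4 libraries each. For Ly6i the ratio to Ly6c2 was 0.107 to 0.165 in control and 0.343 to 0.54 in So(d18:1) libraries. Ly6e made up 90.8% to 91.7% of the reads of the 5 genes without treatment and 86.8% to 89.1% in treated ones, and the share of Ly6a was 2.99% to 3.94% and 7.19% to 9.11%. With reads of Ly6a, Ly6c1, Ly6c2 and Ly6i added together, so that a read placed on the wrong one of them makes no difference, the sum was 992 to 1311 reads per control library and 1522 to 2242 per treated library, a difference of 0.82 on the log2 scale (SE 0.056).

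Levels of different genes can be set beside each other only per length. Per kb of the longest annotated transcript, the order in control libraries was Ly6e at 236 ± 23.1 CPM per kb, Ly6a at 21.5 ± 2.23, Ly6c2 at 10.1 ± 0.876, Ly6i at 3.16 ± 0.778 and Ly6c1 at 0.0362 ± 0.0467 (n = 4 per group, ± SD), with no overlap between neighbours. In So(d18:1) libraries it was Ly6e at 299 ± 24.0 CPM per kb, Ly6a at 64.0 ± 6.41, Ly6c2 at 7.82 ± 0.535, Ly6i at 7.27 ± 1.17 and Ly6c1 at 0.194 ± 0.0288 (n = 4 per group, ± SD). Ly6c2 (7.05 to 8.28 CPM per kb) and Ly6i (6.3 to 8.83) were not apart after treatment. The place of Ly6c2 depends on the transcript taken: its longest is 2680 bases and its coding one 822 bases. Per kb of the coding transcript Ly6c2 was at 29.7 to 35.7 CPM per kb in control libraries, above Ly6a at 18.3 to 23.2, and at 23.0 to 27.0 in So(d18:1) libraries, below Ly6a at 58.6 to 71.6.

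Along the cluster, the higher members were together at the Ly6e end and Ly6c2 was beside its own neighbours at the other. Between the outermost members the table lists 11 genes, members included, of which 5 were tested. The gene tested that is not a member is the pseudogene Gm5960, at 0.51 ± 0.136 and 0.786 ± 0.234 CPM (n = 4 per group, ± SD; log2 fold change 0.59, adjusted p = 0.309, edgeR's quasi-likelihood test). Beyond Ly6c2 lies I830127L07Rik, a transcribed pseudogene that shared 9.58% of its 50-base stretches with other genes. It had 35 stretches in common with Gm5960, 20 with Ly6a, 18 with Ly6i and 3 with Ly6c2. It fell from 23.1 ± 3.95 to 16.7 ± 2.05 CPM (n = 4 per group, ± SD), with a log2 fold change of -0.47 (SE 0.12; adjusted p = 0.0207, edgeR). That call was lost without control replicate 4, So(d18:1) replicate 2 or So(d18:1) replicate 3, with an adjusted p of at most 0.0619 and log2 fold changes of -0.53 to -0.35 over all libraries left out in turn. Next to it Ly6g, which encodes a neutrophil surface marker, was at 1.73 to 2.66 CPM in control and 0.989 to 1.72 CPM in So(d18:1) libraries (log2 fold change -0.64, SE 0.22; adjusted p = 0.0803, edgeR). The shared 50-base stretches of Ly6g were 2 with Ly6i and 2 with Gm28116. With Ly6c2, I830127L07Rik and Ly6g added together, a sum chosen after their values were seen, the log2 fold change was -0.42 (SE 0.079), close to that of Ly6c2 alone. Each of these genes was lower by itself, so the sum does not show how reads shared with Ly6c2 were counted.

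On the Ly6e side, no neighbour passed the threshold. Lynx1, which encodes a modulator of acetylcholine receptors, was at 1.31 ± 0.291 and 2.09 ± 0.423 CPM (n = 4 per group, ± SD; adjusted p = 0.0805, edgeR's quasi-likelihood test). The non-coding Gm39556, the tested gene nearest to Ly6e, was at 3.77 ± 0.341 and 4.17 ± 0.704 CPM (n = 4 per group, ± SD; adjusted p = 0.618, edgeR). Ly6d, a marker of early B lineage cells and keratinocytes, was at 0.701 ± 0.161 and 0.342 ± 0.258 CPM (n = 4 per group, ± SD; adjusted p = 0.203, edgeR). Beyond Ly6g, Zfp41 stood at 21.0 ± 1.66 and 22.1 ± 0.788 CPM (n = 4 per group, ± SD; adjusted p = 0.598, edgeR).

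**Figure D3:**
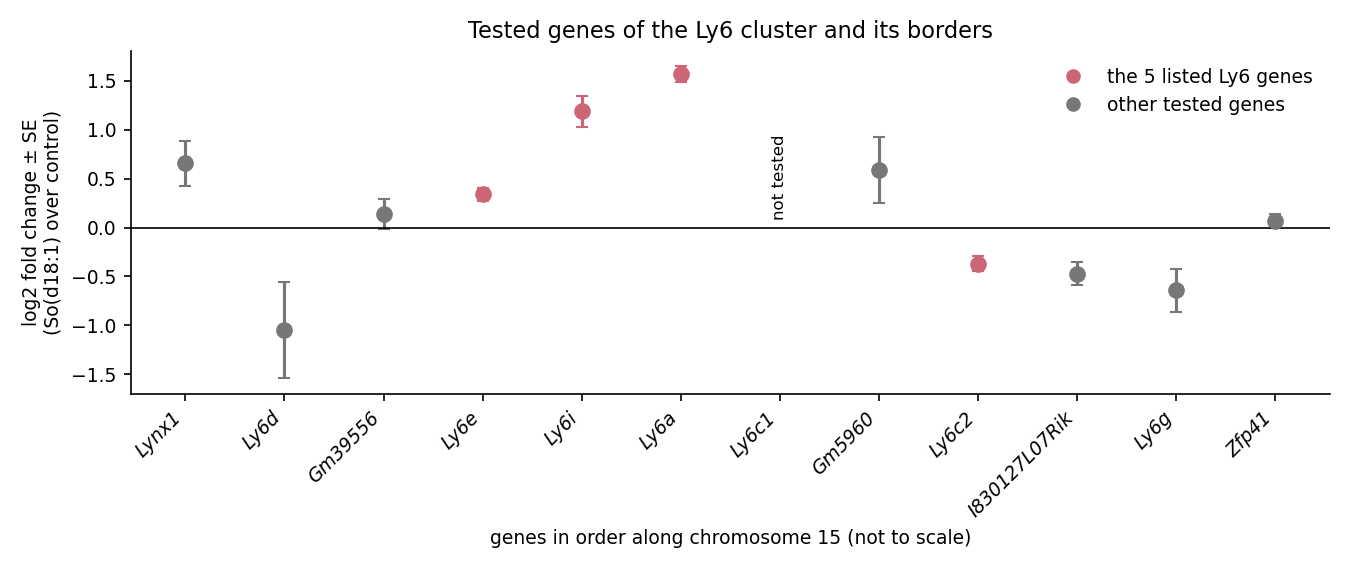
Log2 fold change with its standard error (y axis) of the tested genes in and beside the Ly6 cluster, in their order along chromosome 15 (x axis, not to scale). Red points are the tested Ly6 genes named here and grey points other genes. Ly6e, Ly6i and Ly6a lie above 0, Ly6c1 was not tested, and Ly6c2, I830127L07Rik and Ly6g lie below 0.

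Ly6C and Ly6G are read in flow cytometry as signs of monocytes and neutrophils, and the summed markers of both cell types were lower beside Ly6c2. The summed CPM of 8 classical monocyte markers was 3360 to 3620 in control and 2920 to 3100 in So(d18:1) libraries. Of these 8 genes, 4 fell (Plac8, Chil3, F13a1 and Hp) and Vcan rose (adjusted p under the threshold, edgeR). Plac8, for instance, went from 14.6 ± 0.95 to 10.8 ± 0.949 CPM (n = 4 per group, ± SD; log2 fold change -0.43, adjusted p = 0.00406, edgeR). The summed CPM of 8 neutrophil markers was 1770 to 2340 and 1390 to 1590, and S100a8, S100a9, Mpo, Elane and Csf3r fell among them. Over all tested genes, 5.07% were called lower and 3.87% higher. The part of these cell types in the level of Ly6c2 was not tested. For 10 macrophage markers, which include the M-CSF receptor gene Csf1r at a mean of 6110 CPM, the sum was 13500 to 14100 in control and 12600 to 13700 in So(d18:1) libraries. Of these, Mertk (log2 fold change -0.38, adjusted p = 6.2e-06, edgeR) and Cd68 (-0.22, adjusted p = 0.00349) fell and Itgam rose (0.18, adjusted p = 0.0119). Ly6a also marks T cells, whose receptor genes were near 0: over all control libraries Cd3d had 2 reads, Cd3e 2 and Cd3g 4, and over all treated libraries 6, 0 and 2. Cd4 held most of the T cell list and fell from 22.9 ± 2.26 to 17.1 ± 2.35 CPM (n = 4 per group, ± SD; adjusted p = 0.00865, edgeR).

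The rest of the Ly6/uPAR family, the genes that share the three-finger fold, gave 35 genes in the table, of which 6 were tested. None passed an adjusted p of 0.05 by edgeR's quasi-likelihood test, 4 had an unadjusted p under 0.05 (23.4% of all tested genes did), and the median log2 fold change of the 6 was -0.312, against 0.004 over all tested genes. Cd177, a neutrophil surface protein, had the most reads per length of them. It was at 37.2 ± 7.22 and 26.3 ± 2.35 CPM (n = 4 per group, ± SD; log2 fold change -0.51, SE 0.14, adjusted p = 0.0506, edgeR), and DESeq2's Wald test gave it an adjusted p of 0.000267. By edgeR it also passed without control replicate 1, 2 or 3 (adjusted p = 0.0425, 0.00128 and 0.0478), at log2 fold changes of -0.56, -0.6 and -0.4. Plaur, the urokinase receptor, was at 15.8 ± 4.39 and 14.6 ± 1.87 CPM (n = 4 per group, ± SD; adjusted p = 0.779, edgeR). Cd59a, which blocks complement, was at 3.91 ± 0.35 and 3.94 ± 0.364 CPM (n = 4 per group, ± SD; adjusted p = 0.963, edgeR). Of the 29 that were not tested, 13 had no read in any library and no gene had more than 12 reads in a library.

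Ly6 proteins reach the surface on the GPI anchor, which is built in the endoplasmic reticulum by the Pig enzymes and joined to the protein by a transamidase. Of 29 tested genes for making, attaching and trimming the anchor, 2 rose and none fell, with a median log2 fold change of 0.045. Pigs and Pigt, which encode subunits of the transamidase, rose. Pigs went from 91.2 ± 2.76 to 106 ± 6.92 CPM (n = 4 per group, ± SD; log2 fold change 0.22, adjusted p = 0.00609, edgeR) and Pigt from 91.6 ± 3.31 to 103 ± 5.02 CPM (n = 4 per group, ± SD; log2 fold change 0.17, adjusted p = 0.0278, edgeR). The call of Pigt was lost in 5 of the 8 fits that left out a library, without control replicates 1 or 2 or So(d18:1) replicates 1, 2 or 4 (adjusted p up to 0.103, edgeR), at log2 fold changes of 0.15 to 0.18. The 2 calls are 6.9% of the list, beside a background of 8.94%. The other transamidase genes did not pass, with log2 fold changes of 0.04 for Pigk, 0.03 for Gpaa1 and 0.03 for Pigu (adjusted p = 0.718, 0.871 and 0.82, edgeR). Pign and Pigh, the next by p, did not pass (log2 fold changes -0.12 and 0.24, adjusted p = 0.152 and 0.2, edgeR).

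Since Ly6a, Ly6e and the Ly6c genes are known to answer interferon, the genes of that pathway were set beside them. The ligand genes Ifnb1, Ifna2, Ifna4 and Ifng had at most 2 reads in a library and were not tested. Among 17 tested genes for receptors, kinases, factors and regulators of the pathway, 2 rose and none fell, with a median log2 fold change of 0.09. The 2 calls are 11.8% of the list, beside a background of 8.94%. Irf1, a transcription factor induced by interferon-γ, went from 94.7 ± 7.35 to 112 ± 6.04 CPM (n = 4 per group, ± SD; log2 fold change 0.24, adjusted p = 0.00693, edgeR). Ifngr1, the ligand-binding chain of the interferon-γ receptor, went from 441 ± 23.4 to 489 ± 20.6 CPM (n = 4 per group, ± SD; log2 fold change 0.15, adjusted p = 0.0461, edgeR), a call lost in 7 of the 8 fits that left out a library, all but that without control replicate 2 (adjusted p up to 0.166, edgeR), at log2 fold changes of 0.12 to 0.17. Irf2, a related factor, was at 113 ± 3.12 and 123 ± 3.72 CPM (n = 4 per group, ± SD; adjusted p = 0.0645, edgeR).

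Of 30 interferon-stimulated genes, all tested, 1 rose and none fell, a share of 3.33% where 8.94% of all tested genes were called. Their median log2 fold change was 0.111, with 21 above 0 and 9 below. The gene that rose was Oas3, an antiviral sensor of double-stranded RNA, at 58.2 ± 5.83 and 80.1 ± 11.7 CPM (n = 4 per group, ± SD; log2 fold change 0.46, SE 0.11, adjusted p = 0.0298, edgeR). Its call was lost without control replicate 3 or So(d18:1) replicate 2 (adjusted p up to 0.11, edgeR), at log2 fold changes of 0.36 to 0.52 over all libraries left out in turn. The list had 0 calls without So(d18:1) replicate 2 and 4 without control replicate 2. The highest log2 fold change of the list, 0.46, lay between those of Ly6e at 0.34 and Ly6i at 1.19. Ifih1, Ddx58 and Parp14, the next by p, had log2 fold changes of 0.19, 0.18 and 0.15 (adjusted p = 0.0708, 0.117 and 0.117, edgeR). Without So(d18:1) replicate 3, the median of the list was 0.011, and without control replicate 4 it was 0.041.

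**Figure D4:**
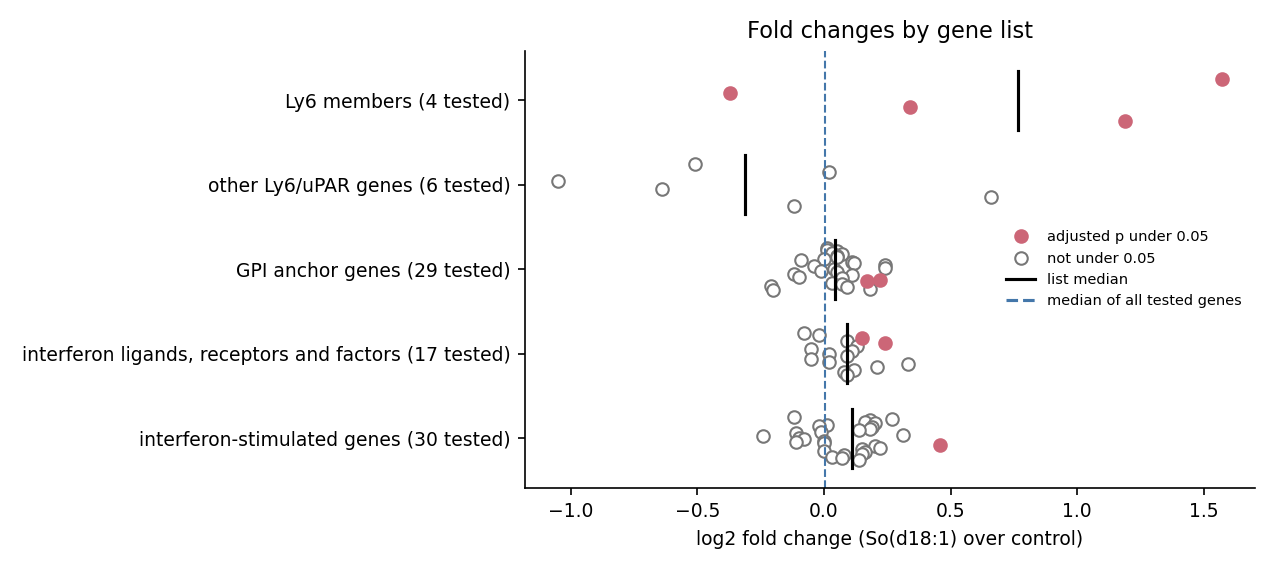
Log2 fold change of So(d18:1) over control (x axis) for each tested gene of 5 gene lists (y axis). Filled red points had an adjusted p under 0.05, open points did not, black bars are list medians and the dashed line is the median of all tested genes, 0.004. Ly6a and Ly6i lie to the right of all 30 interferon-stimulated genes, whose median is 0.111.

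Libraries of the same group also differed among themselves. The mean log2 CPM of the 30 interferon-stimulated genes was 5.64, 5.61, 5.67 and 5.35 in control replicates 1 to 4 and 5.6, 5.53, 5.94 and 5.52 in So(d18:1) replicates 1 to 4. So(d18:1) replicate 3, the highest treated library in that mean, was also the highest treated library in Ly6a, Ly6i and Ly6e and the lowest in Ly6c2. Control replicate 3 was the highest control library in that mean and in Ly6i and Ly6e, but not in Ly6a. Control replicate 4 was the lowest in that mean and in Ly6a, and the highest in Ly6c2. Other libraries went apart from it. Control replicate 1 was 0.07 above its group in the interferon-stimulated genes, yet was the lowest control library in Ly6i (-0.44 from the group mean) and Ly6e (-0.12). So(d18:1) replicate 4 was the lowest treated library in the interferon-stimulated genes, at -0.13, but was 0.06 above its group in Ly6i. With each library left out in turn, the log2 fold change was 1.5 to 1.62 for Ly6a and 1.07 to 1.35 for Ly6i. It was 0.3 to 0.41 for Ly6e and -0.41 to -0.32 for Ly6c2. The members were chosen by this comparison, so these ranges are a description. The part of interferon in the levels of the members was not tested.

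**Figure D5:**
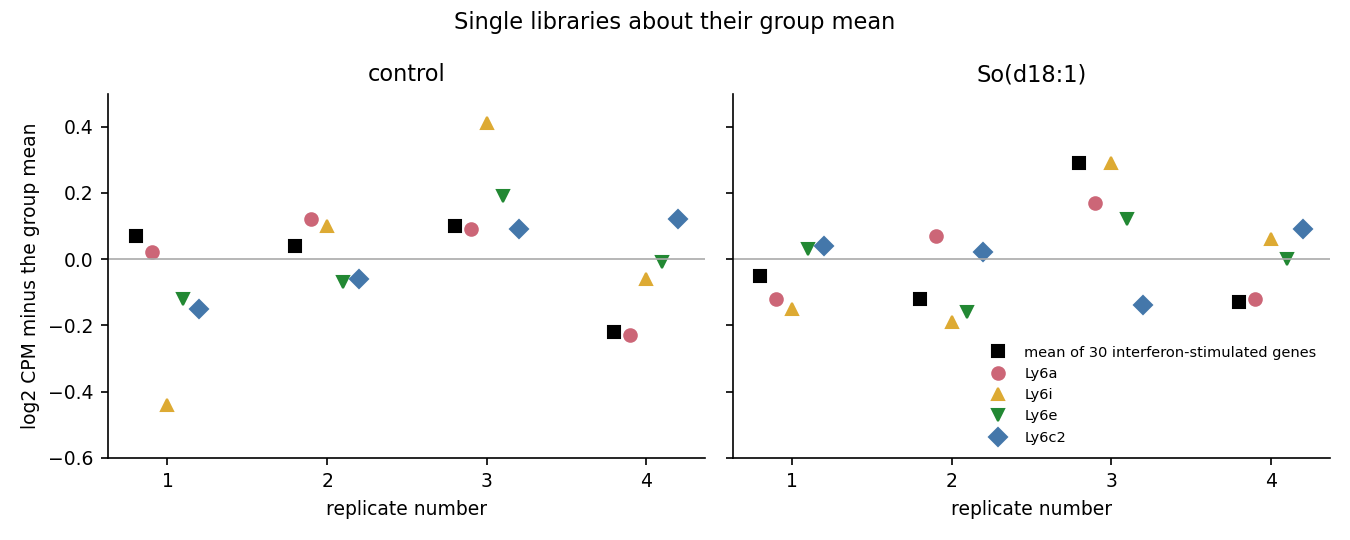
Log2 CPM of Ly6a, Ly6i, Ly6e and Ly6c2 and the mean of 30 interferon-stimulated genes, minus the mean of the group (y axis), for replicates 1 to 4 (x axis) of control (left) and So(d18:1) (right). In So(d18:1) replicate 3 the interferon-stimulated genes, Ly6a, Ly6i and Ly6e are above the group mean, by 0.29, 0.17, 0.29 and 0.12, and Ly6c2 is below it.

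The genes with the most similar profile over the 8 libraries were found by the root mean square distance between log2 CPM profiles, each centred on its own mean, over 11557 genes with a mean log2 CPM of at least 1. For Ly6a the nearest were Jaml (0.0863), an adhesion molecule of leukocytes, Gpr141 (0.13), an orphan receptor, and Ahrr (0.153), the repressor of the aryl hydrocarbon receptor. Jaml was a low gene, at 1.14 ± 0.105 and 3.62 ± 0.197 CPM (n = 4 per group, ± SD). Gpr141 went from 41.5 ± 1.68 to 119 ± 1.25 CPM and Ahrr from 33.7 ± 1.57 to 99.0 ± 9.17 CPM (n = 4 per group, ± SD). Those nearest to Ly6i were Runx3 (0.195), a transcription factor, Nqo1 (0.2), a quinone reductase, and Unc5b (0.236), a netrin receptor. For Ly6e they were Serpinb8 (0.0604), Twsg1 (0.062) and Synj2 (0.0648), and for Ly6c2 they were Ddit3 (0.0565), Hspa4 (0.0625) and Ptp4a3 (0.0635). Ddit3 and Ptp4a3 were not called (adjusted p = 0.0708 and 0.053, edgeR's quasi-likelihood test). The smaller distances for Ly6e and Ly6c2 go with smaller movement, as these profiles lay 0.203 and 0.209 from their own mean, against 0.796 for Ly6a and 0.653 for Ly6i. Members were left out of the search. The distances include the difference between groups by which the members were chosen, so these neighbours are a description.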

How the data were processed

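PolyA RNA of 8 BMDM libraries was sequenced. The authors trimmed reads (Trim Galore 0.6.7), aligned them to mm10 (HISAT2 2.2.1), counted them on genes (featureCounts 2.0.1) and deposited whole-number counts per gene, not normalized. Counts depend on how multi-mapping reads were handled, which is not given in the sources used here.

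Symbols, positions and transcript sequences came from GENCODE release 21; 52081 of 55357 identifiers had a symbol, and the others held 0.169% to 0.325% of the counts. Counts were filtered by filterByExpr, scaled by TMM and tested in R 4.3.3 with edgeR 4.0.16 (robust quasi-likelihood F test, Benjamini-Hochberg over 14514 genes). Standard errors (SE) were derived from F and the fold change, and the prior count for log2 CPM was 2. Precision rests on 4 libraries per group. The members and all gene lists were chosen with earlier results of these data known.

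Named genes were the members, called or abundant Ly6/uPAR genes (the 5 with the most reads per length), tested genes of the cluster and the nearest 3 on each side, up to 4 per pathway list by p, and the 3 most similar profiles per member. A gene that this rule names is not reported here. Alternatives were DESeq2 1.42.0 (size factors, Wald test), limma-voom (limma 3.58.1), library size alone, no filter, at least 10 counts in every library, summed paralogs, the replicate number as a block and each library left out. The sum of Ly6c2 with its neighbours and the use of the coding transcript (for levels per length and shared stretches) were added after seeing the data. Data were also simulated with the same spread between libraries for every gene (coefficient of variation 0.0657, beyond counting error). In them, 85 of 100 genes changed by 0.75 (log2) and 94 of 98 changed by 1.5 were called, with 13 false among 192 calls. Real genes differ in spread, so these rates do not carry over to single genes here. The aligned coding sequences were compared with Biopython 1.88.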

Additional observations from a re-analysis of the deposited data

Results flagged for a closer look

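Of 52 groups of 4 libraries examined for a single library far from the rest, 1 stood out, where chance alone gives about 2.6. The log2 of the summed CPM of the T cell markers was 3.8 in So(d18:1) replicate 2 and 4.19 to 4.24 in the other treated libraries, a gap of 0.881 of the group's range. No Ly6 gene was singled out in this way.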

How the results depend on the processing

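The members were chosen by their values in this comparison, so how their calls held gives no support to them and is a description. Ly6e was not called without So(d18:1) replicate 4 (log2 fold change 0.34, and 0.3 to 0.41 with each library left out in turn). Of 4 tested members, 2 were called at the methods threshold, at which 564 genes were called in all, and 2 features remained called with paralogs summed, since that leaves only Ly6e and the sum. Leaving out a library gave 815 (without So(d18:1) replicate 2) to 1370 genes called, 3 to 4 members, 0 to 1 other Ly6/uPAR gene, 1 to 2 GPI anchor genes, 1 to 2 interferon ligands, receptors and factors, and 0 to 4 interferon-stimulated genes. Of the other Ly6/uPAR genes, 1 was called with library size alone, no filter, at least 10 counts in every library, DESeq2's Wald test and limma-voom, in each case Cd177. With at least 10 counts in every library, 1 interferon factor was called. With no filter on low counts, 7 interferon-stimulated genes were called, and the whole table gave 1723 calls among 28076 genes. Plaur and Cd59a, near 0 in the fit to all libraries, changed sign when a library was left out: Plaur ranged from -0.23 to 0.01 (without control replicate 4), and Cd59a from -0.04 (without So(d18:1) replicate 4) to 0.08, with -0.03 without control replicate 3. The cause of these shifts was not tested.

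The labels do not say whether the replicate numbers pair the libraries. Deviations of same-numbered libraries correlated at -0.00351 to 0.1, and not every library was nearest to its own number. With the replicate number as a block, 1784 genes were called, among them 1296 of the 1298 called without it. That fit called 1 other Ly6/uPAR gene and 7 interferon-stimulated genes. Whether the numbers mark a pairing was not settled.

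Depth limits Ly6c1, with at most 5 reads per library, and the untested Ly6/uPAR genes.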

Other observations

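The summed CPM of 5 B cell markers was 16.5 to 19.4 in control and 13.3 to 17.1 in So(d18:1) libraries, and Pax5, a factor of the B lineage, fell among them. For 5 plasmacytoid dendritic cell markers the sum was 235 to 276 and 239 to 250 CPM, most of it from Tcf4 at a mean of 246 CPM. For 7 stromal markers it was 6.85 to 10.4 and 6.17 to 8.82 CPM. None of the 4 plasmacytoid dendritic cell and 5 stromal markers that were tested passed an adjusted p of 0.05 (edgeR's quasi-likelihood test).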
